A study of Mus musculus with 12 samples.

Results

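Primary mouse aortic smooth muscle cells (SMCs) exposed to medium conditioned by macrophages activated with interferon γ (IFNγ) and lipopolysaccharide (LPS) were compared with the same cells in regular growth medium. This is 8 of the 12 RNA-seq libraries of the series, 4 on each side, chosen by their column names, and every gene was included. The other 4 libraries, SMCs in medium conditioned by naive macrophages, entered to show which genes differed between the conditioned media and yet stood at the regular-medium level. Conditioned medium is written CM below, and the groups are called IFNγ/LPS CM, naive CM and regular medium. The conditioning cells were bone marrow-derived macrophages. For IFNγ/LPS CM they received 20 ng/mL IFNγ overnight and then 100 ng/mL LPS for 4 h, and for naive CM they received neither. Both kinds were washed 4 times with PBS and left for 24 h in fresh DMEM with 0.3% fetal bovine serum and 10 ng/mL M-CSF (macrophage colony-stimulating factor), and that medium was cleared by centrifugation. The SMCs had been serum-starved for 48 h in DMEM with 0.3% serum and were exposed to CM for 24 h. The labels give no composition of the regular medium and no starvation for its cells, so the effects of serum, M-CSF, starvation and macrophage products cannot be told apart in this comparison. The reading of the column codes as naive and IFNγ/LPS CM rests on the macrophage shorthand in those names, and every direction below rests on it. The titles number the libraries as biological replicates but do not say whether each came from its own animal or culture. The p-values therefore describe no more than the variation among these libraries, and how much of that is technical cannot be told.

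IFNγ acts on its receptor through JAK kinases and induces the transcription factor IRF1, GTPases, antigen presentation and chemokines. LPS-activated macrophages secrete tumour necrosis factor, interleukin 1 and type I interferon, which act on neighbouring cells through NF-κB and through interferon receptors. SMCs of the vessel wall are known to lose contractile proteins, take up inflammatory and matrix-remodelling programmes, and divide or stop dividing according to the mitogens and cytokines around them.

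The promoter windows of 4 genes show sequence elements of interferon targets and of mitotic genes that were back at the regular-medium level. Each is 300 bases of the RefSeq annotation on GRCm38.p6, from 250 bases before to 50 after the start, written 5′ to 3′ on the gene's strand. Cxcl10 (chr5:92348840-92349139, minus strand) and Gbp2 (chr3:142620413-142620712, plus strand) are interferon targets, and capitals mark the letters of the interferon-stimulated response element (ISRE), GAAA, any 2 bases and GAAA, on either strand. Aurka (chr2:172370521-172370820, minus strand) and Kif18b (chr11:102925075-102925374, minus strand) encode a mitotic kinase and a mitotic kinesin. Their capitals mark TTTGAA, the core of the cell cycle homology region (CHR) of mitotic promoters, and CCAAT.
Cxcl10: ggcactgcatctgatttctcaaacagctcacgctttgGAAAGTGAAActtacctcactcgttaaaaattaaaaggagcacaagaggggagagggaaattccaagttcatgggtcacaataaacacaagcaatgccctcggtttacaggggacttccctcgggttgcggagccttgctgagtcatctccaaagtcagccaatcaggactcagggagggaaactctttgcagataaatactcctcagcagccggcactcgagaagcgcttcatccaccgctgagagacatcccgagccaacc
Gbp2: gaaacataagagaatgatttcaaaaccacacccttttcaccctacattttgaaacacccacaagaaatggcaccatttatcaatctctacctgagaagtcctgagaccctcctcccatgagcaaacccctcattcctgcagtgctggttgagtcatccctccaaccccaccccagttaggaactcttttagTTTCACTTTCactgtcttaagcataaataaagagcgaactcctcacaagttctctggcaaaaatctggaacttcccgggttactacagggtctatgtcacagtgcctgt
Aurka: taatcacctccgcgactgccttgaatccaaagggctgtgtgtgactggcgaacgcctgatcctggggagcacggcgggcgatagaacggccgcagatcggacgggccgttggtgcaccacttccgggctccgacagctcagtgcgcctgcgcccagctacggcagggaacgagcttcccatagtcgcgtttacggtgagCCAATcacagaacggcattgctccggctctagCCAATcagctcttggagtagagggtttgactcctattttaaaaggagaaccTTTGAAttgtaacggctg
Kif18b: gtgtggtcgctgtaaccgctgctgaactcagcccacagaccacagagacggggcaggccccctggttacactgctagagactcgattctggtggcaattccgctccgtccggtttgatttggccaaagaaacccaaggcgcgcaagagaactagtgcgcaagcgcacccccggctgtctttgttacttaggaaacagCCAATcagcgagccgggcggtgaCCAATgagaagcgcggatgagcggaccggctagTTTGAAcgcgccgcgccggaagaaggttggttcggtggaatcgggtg
The ISRE letters stood in 9 of the 10 interferon-induced GTPase promoters found in the RefSeq table (90%) and in 12 of 20 promoters of antiviral genes (60.0%), against 3.99% of the 27025 genes of that table and 3.83% of the 10869 tested genes found in it. TTTGAA stood in 16 of 21 promoters of mitosis genes (76.2%), against 20.2% of the table and 14.5% of the tested genes, and also in 5 of the 10 GTPase promoters (50.0%). Among DNA replication genes its share was 11.1% of 18 promoters. CCAAT stood in 85.7% of the mitosis promoters against 41.1% of the table. These are matches of letters on both strands of a short window, and binding was not measured.

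Each library held between 28097496 and 61493375 estimated counts, and the mean total ± SD was 46759268 ± 14222466 in regular medium and 42370785 ± 1941136 in IFNγ/LPS CM (n = 4 each). Levels below are CPM (counts scaled to a common library size) on libraries scaled by TMM, which sets the level of most genes equal between libraries. On log2 CPM over the 16140 genes tested, libraries correlated at 0.993 to 0.997 within regular medium, at 0.996 to 0.997 within IFNγ/LPS CM and at 0.886 to 0.893 between them, whereas naive CM and regular medium libraries correlated at 0.987 to 0.992. With edgeR's quasi-likelihood test and Benjamini-Hochberg adjustment, 11594 genes (71.8%) passed an adjusted p of 0.05 in IFNγ/LPS CM against regular medium. Of these, 5712 were higher (35.4%) and 5882 lower (36.4%), and 4533 (28.1%) also changed at least 2-fold, 2205 up (13.7%) and 2328 down (14.4%). At both thresholds, naive CM against regular medium gave 617 genes (3.82%), 464 higher (2.87%) and 153 lower (0.948%). IFNγ/LPS CM against naive CM passed the adjusted p for 11611 genes (71.9%), 5781 of them lower (35.8%), and 4673 (29%) also changed at least 2-fold. These comparisons share libraries. The libraries of the 2 groups did not overlap for 10523 genes (65.2%).

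The split of higher and lower genes rests on the scaling. Scaled by library totals in place of TMM, the all-gene median log2 fold change went from -0.03 to -0.41, and 3279 genes were higher and 9596 lower. The mean TMM factor was 1.09 in regular medium and 0.837 in IFNγ/LPS CM. The 15 interferon-induced GTPases summed to 216.5 ± 10.5 TMM-scaled CPM in regular medium and 40404 ± 1470 in IFNγ/LPS CM (SD, n = 4). Of the unscaled total counts they took 0.0220% to 0.0248% of a regular-medium library and 3.23% to 3.49% of an IFNγ/LPS CM library. The counts of each list below stand beside 35.4% higher and 36.4% lower over all genes tested, so a mixed list may differ little from any set of genes. Where library totals moved a list's split by more than 10 percentage points, both splits are given. Differences well under 0.5 on the log2 scale are sensitive to this choice.

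**Figure D1:**
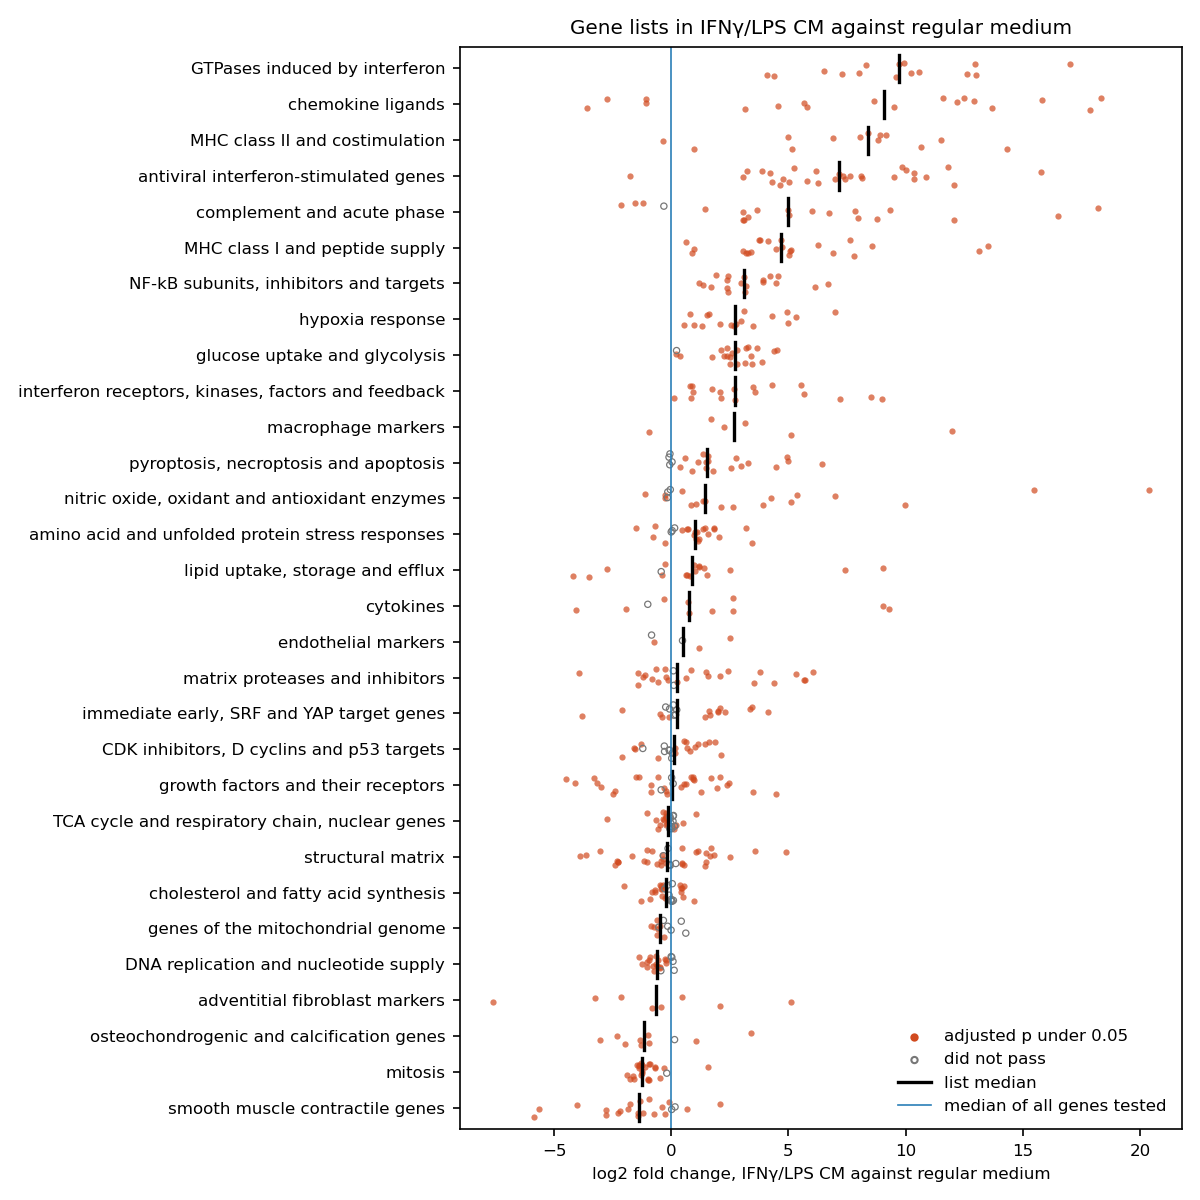
Log2 fold change of each tested member of the 30 gene lists between IFNγ/LPS CM and regular medium, ordered by the list median (black bar); filled points passed an adjusted p of 0.05, open points did not, and the blue line is the median of all genes tested. Medians run from 9.71 for interferon-induced GTPases to -1.38 for contractile genes; members with no counts in regular medium (such as Nos2 at the far right) stand at fitted values that depend on a prior count.

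Interferon-induced genes had the highest list median. All 15 interferon-induced GTPases rose, with a median log2 fold change of 9.71 against -0.03 over all genes, and so did 28 of 29 antiviral genes (median 7.17). Gbp2, a guanylate-binding GTPase of host defence, stood at 13.2, 13.3, 10.6 and 12.2 CPM in the regular-medium libraries and at 10575, 10753, 10531 and 9784 CPM in IFNγ/LPS CM. The groups lay far apart, the fold was 836 (log2 9.71 ± 0.06 SE) and the edgeR adjusted p was 6.69e-25. In naive CM Gbp2 was at 15.6, 15, 14.9 and 14.9 CPM, near the regular-medium level. Gbp4 had no count in regular medium and 372, 362, 378 and 352 CPM with IFNγ/LPS CM, which is at least 25013-fold higher at a floor of 3 counts over the group. Several of these genes (the Gbp, Tgtp and Ifit3 copies) are near-identical, so the split of reads among them is uncertain. Rsad2, the antiviral enzyme viperin, had 4 counts over all regular-medium libraries and 1249 ± 26.1 CPM (SD, n = 4) with IFNγ/LPS CM (ratio 64005, 95% counting interval 24998 to 234912). Ifit1, which binds viral RNA, rose 925-fold and Mx1, a dynamin-like GTPase that blocks influenza viruses, went from 51 counts in all to 257 CPM. Ifi27 was the 1 antiviral gene that fell, from 80.8 to 24.1 CPM.

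All 18 interferon receptors, kinases, factors and feedback genes were higher (median 2.70), although the 1.07-fold rise of Ifngr1, the IFNγ receptor chain, is smaller than the shift between scalings and 1 of the 18 was lower with library totals. Irf1 stood at 36.1, 33.8, 33.4 and 34.8 CPM in regular medium and at 1618, 1607, 1603 and 1491 CPM in IFNγ/LPS CM. The groups did not overlap (45.7-fold, log2 5.51, edgeR adjusted p = 2.39e-24). Irf7, the factor that amplifies type I interferon, rose 362-fold. The feedback inhibitor Socs1 rose 145-fold. Receptor chains moved less, with Ifnar2 6.33-fold and Ifngr2 1.88-fold higher. Ifng and Il1b had no counts in any library, Ifnb1 had 5 counts and Tnf 6 in IFNγ/LPS CM and 0 in the other groups, so these ligands themselves were barely seen in SMC RNA.

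MHC class I genes rose, 23 of 23 tested (median 4.67). B2m, the invariant light chain, was at 689, 721, 642 and 624 CPM in regular medium and at 7170, 6993, 7213 and 6701 CPM in IFNγ/LPS CM, a 10.5-fold rise with no overlap. H2-K1, a classical heavy chain, rose from 30.5, 27.1, 29.4 and 35.7 CPM to 2380, 2412, 2328 and 2312 CPM (76.9-fold). Nlrc5, the transactivator of class I genes, rose 382-fold and the immunoproteasome subunits Psmb8 and Psmb9 rose 195-fold and 119-fold. The general chaperones of the route moved least: Calr rose 1.98-fold and Canx 1.54-fold. Of 13 genes for class II and costimulation, 12 rose and Ifi30, a lysosomal thiol reductase, fell 1.29-fold (median 8.39, or 6.90 with the 2 genes absent from regular medium at their bound). Cd74, the class II invariant chain, went from 59 counts in regular medium to 466 ± 32.7 CPM (ratio 1619, 95% counting interval 1255 to 2127), and Ciita, the class II transactivator, from 52 counts to 121 CPM (ratio 479, 365 to 641). Cd274, which encodes the checkpoint ligand PD-L1, rose 458-fold to 658 CPM. The B7 costimulator Cd80 rose 1.94-fold, from 10.2 to 19.8 CPM. Cd86, also of the B7 family, was not tested and had 1 count in regular medium and 0 in IFNγ/LPS CM.

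NF-κB genes rose too, 19 of 19 with a median of 3.12. Vcam1, the adhesion molecule that holds monocytes to the vessel wall, was at 459, 496, 491 and 493 CPM in regular medium, at 667, 679, 706 and 666 CPM in naive CM and at 4078, 4265, 4261 and 4273 CPM in IFNγ/LPS CM. It was already present without macrophage medium and rose 8.7-fold in IFNγ/LPS CM. Icam1 rose from under 1 CPM in every regular-medium library to between 53.6 and 59.4 CPM (69.9-fold). The inhibitors Nfkbia and Tnfaip3 rose 9.2-fold and 5.42-fold, and the subunit Rela 3.27-fold.

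Most chemokine ligands rose: of 18 tested, 14 were higher and 4 lower, with a median of 9.08. Cxcl10, which draws activated T cells through CXCR3, had 0.0858, 0.0885, 0.0329 and 0.206 CPM in regular medium and 6670, 6493, 6178 and 5844 CPM in IFNγ/LPS CM (22 counts against 893622, ratio 58699, 95% counting interval 38770 to 93664). Cxcl9, with the same receptor, was at 742, 687, 661 and 548 CPM and had no count in regular medium, at least 45157-fold higher. Ccl5 was likewise absent from regular medium and at 888, 876, 927 and 891 CPM with IFNγ/LPS CM, at least 61184-fold higher. The monocyte chemokine Ccl2 went from 1.59 to 4832 CPM and the neutrophil chemokine Cxcl1 from 7.31 to 2884 CPM (399-fold). The ligands that fell were Cxcl12, Cxcl15, Ccl9 and Ccl17. Cxcl12, which retains progenitors through CXCR4, was at 1368, 1425, 1470 and 1486 CPM in regular medium, at 938, 1002, 877 and 931 in naive CM and at 667, 683, 705 and 700 in IFNγ/LPS CM. It stepped down in both conditioned media, 2.09-fold in IFNγ/LPS CM against regular medium. Cxcl15 was lower in IFNγ/LPS CM (16.4, 19, 17.6 and 20.1 CPM) than in regular medium (125, 135, 115 and 115 CPM) although naive CM was higher than both (254, 264, 250 and 270 CPM).

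Cytokine genes moved both ways, 7 up, 3 down and 1 not passing (median 0.75). Il6 rose from 21 counts in regular medium to 66.1 ± 4.11 CPM (ratio 645, 95% counting interval 422 to 1043) and Csf1, which encodes M-CSF, from 284, 266, 298 and 260 CPM to 957, 951, 949 and 874 CPM (3.37-fold). Il33, a nuclear alarmin, fell from 13.7, 14.3, 11.5 and 12.5 CPM to below 1 CPM in every IFNγ/LPS CM library (16.9-fold lower). It was higher in naive CM, at 31.3 CPM, so its order was naive CM, regular medium, IFNγ/LPS CM.

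The complement and acute phase list had 17 genes that rose, 3 that fell and 1 that missed the threshold (median 4.98). C3, the central complement component, was at 140, 135, 154 and 136 CPM in regular medium and at 8877, 8957, 9322 and 8682 CPM in IFNγ/LPS CM (63.5-fold, log2 5.99, edgeR adjusted p = 6.83e-24). Its naive CM values were 260, 246, 242 and 241 CPM, a step in the same direction. The acute phase genes Saa3 and Lcn2 had 4 and 5 counts in regular medium. In IFNγ/LPS CM Saa3 was at 6638, 6682, 6884 and 6753 CPM and Lcn2 at 2654, 2719, 2553 and 2263 CPM, ratios of 345121 (95% counting interval 134792 to 1266660) and 104498 (44778 to 321833). The components C1ra and C1s1 rose 8.5-fold and 9.75-fold, and Cfb, of the alternative pathway, 232-fold. Among those that fell were the complement inhibitors Cd55 (2.94-fold) and Cd59a (4.4-fold), whereas the C1 inhibitor Serping1 rose 12.5-fold.

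The largest fitted log2 fold change was that of Nos2, the inducible nitric oxide synthase (chr11:78920787-78960254, plus strand, GRCm38). This value depends on a prior count, so whether Nos2 or a gene such as Saa3 rose most cannot be told. Nos2 had no count in the 4 regular-medium libraries and 3616, 3569, 3915 and 3953 CPM with IFNγ/LPS CM, at least 256839-fold higher. Its arginine transporter Slc7a2 rose 18.9-fold, from 377, 403, 379 and 367 CPM to 7258, 7368, 7214 and 6998 CPM. Acod1, which makes itaconate, was absent from regular medium and at 136, 122, 126 and 116 CPM with IFNγ/LPS CM, at least 8541-fold higher. Across the nitric oxide and redox list 15 rose, 3 fell and 3 did not pass (median 1.43), and 14 rose and 6 fell with library totals. Cybb, the oxidase subunit gp91phox, rose 128-fold, and the cystine transporter Slc7a11 40.9-fold. Gclc, the catalytic subunit of glutathione synthesis, went the other way: 252, 238, 247 and 226 CPM in regular medium, 638, 589, 572 and 581 in naive CM and 115, 109, 110 and 109 in IFNγ/LPS CM (2.17-fold lower). Its partner subunit Gclm rose 4.4-fold.

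**Figure D2:**
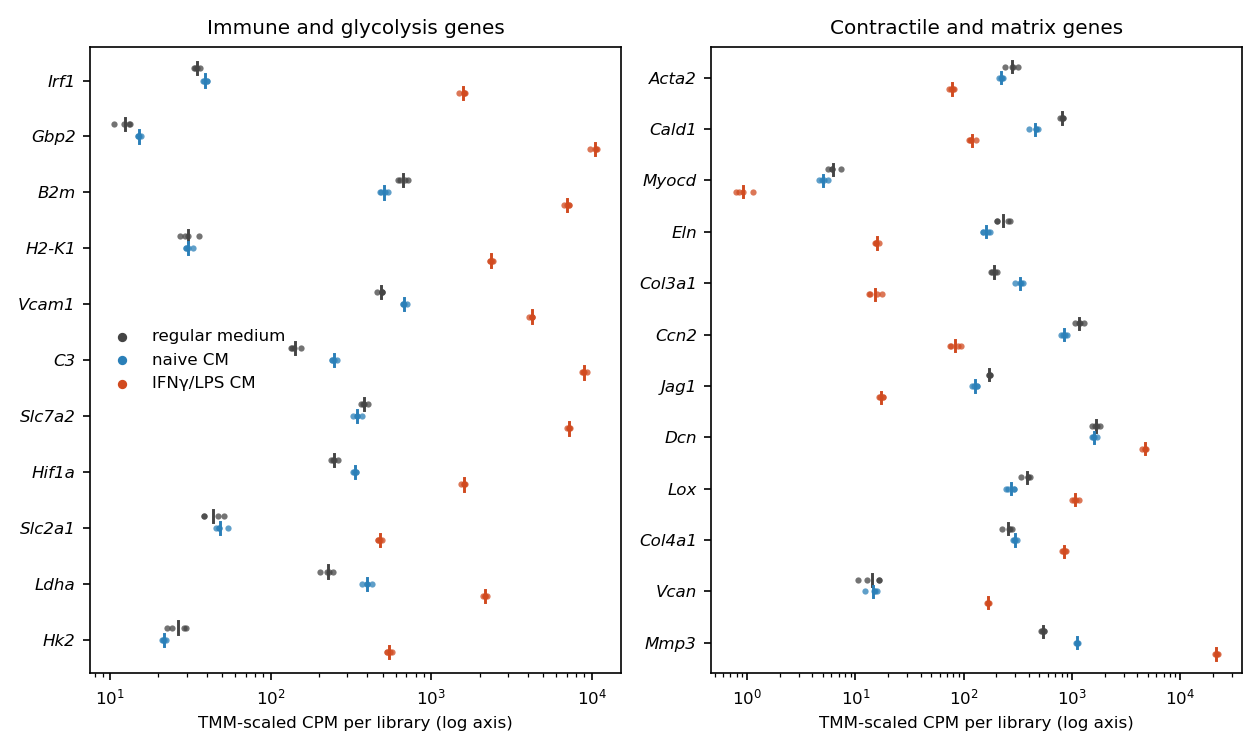
Level of 23 genes in each of the 12 libraries, in TMM-scaled CPM on a log axis; points are libraries, short bars group means, grey regular medium, blue naive CM and red IFNγ/LPS CM. For Irf1 and Gbp2 the naive CM libraries sit near regular medium while IFNγ/LPS CM sits far to the right, and for Ldha naive CM lies between; Eln, Col3a1, Ccn2 and Jag1 sit to the left and Dcn, Lox, Col4a1 and Vcan to the right.

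Glucose uptake and glycolysis genes rose almost together, 21 of 22 with a median of 2.70, and all 18 genes of the hypoxia response rose (median 2.73). With library totals 19 glycolysis genes rose and 1 fell, and 17 hypoxia genes rose and none fell. Slc2a1, the glucose transporter GLUT1, was at 38.2, 38.2, 46.7 and 50.9 CPM in regular medium and at 495, 465, 467 and 479 CPM in IFNγ/LPS CM (11-fold). Hk2, hexokinase of the first step, rose 20.8-fold, from 22.5, 24.4, 29.8 and 28.9 CPM to 529, 528, 573 and 555 CPM. Ldha, which turns pyruvate into lactate, was at 224, 204, 244 and 232 CPM in regular medium, at 369, 398, 427 and 396 in naive CM and at 2235, 2162, 2150 and 2105 in IFNγ/LPS CM (9.57-fold, log2 3.26 ± 0.05 SE, edgeR adjusted p = 3.94e-20). Ldha and Pgk1, the kinase of lower glycolysis (191, 415 and 2769 CPM in regular medium, naive CM and IFNγ/LPS CM), had thus already moved part of the way in naive CM. Hif1a, the oxygen-regulated transcription factor, rose 6.41-fold, Ero1l, the endoplasmic reticulum oxidase, 31.1-fold and Vegfa 8.66-fold. Oxygen was not measured.

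The nuclear genes of the TCA cycle and respiratory chain stayed close by: 25 of 30 had a 90% interval within 1.5-fold of regular medium, against 40.3% of all genes tested. Of the 30, 4 were higher, 16 lower and 10 did not pass (median -0.14), and 2 were higher and 28 lower with library totals. Idh2, the mitochondrial NADP-dependent isocitrate dehydrogenase, stood apart at 94.5, 82.9, 85 and 78.2 CPM in regular medium and 13, 13.3, 12.4 and 12.6 CPM in IFNγ/LPS CM (6.64-fold lower). Cycs, which encodes cytochrome c, rose 2.07-fold. Of the 13 protein-coding genes of the mitochondrial genome, 7 were lower and 6 did not pass (median -0.47). In bulk RNA, fewer cells of a type and less RNA per cell cannot be told apart.

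Contractile genes fell. Of 22 tested, 18 were lower, 2 higher and 2 did not pass (median -1.38). Acta2, smooth muscle α-actin (chr19:34241090-34255590, minus strand, GRCm38), was at 315, 277, 285 and 243 CPM in regular medium, at 229, 224, 210 and 218.6 in naive CM and at 76.1, 78.8, 81.3 and 73 in IFNγ/LPS CM. The lowest regular-medium library was well above the highest IFNγ/LPS CM library, and the fall was 3.62-fold (log2 -1.86 ± 0.06 SE, edgeR adjusted p = 5.15e-14). Tagln, the actin-binding protein SM22α, was at 48.4, 33.5, 22.2 and 22.3 CPM in regular medium and between 0.521 and 0.592 CPM in IFNγ/LPS CM (ratio 60.7, 95% counting interval 48.6 to 76.9). Cald1, caldesmon, fell 6.85-fold, from 809, 825, 825 and 771 CPM to 116, 131, 111 and 113 CPM, with naive CM between at 453 CPM. Myocd, the coactivator that drives the contractile programme, fell 6.82-fold, from 6.26 to 0.913 CPM. Mylk, the myosin light chain kinase, was higher (75 counts in regular medium, ratio 4.22, 95% counting interval 3.23 to 5.56). The late markers of differentiated smooth muscle were low from the start: Myh11 was at 0.716 CPM, Cnn1 at 0.276 and Des at 0.464 in regular medium, while Acta2 and Tagln were plainly present.

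Markers of other cell types were read beside these changes. Of 20 macrophage markers 6 were tested, 5 were higher and 1 lower, and their summed level was 33.9 to 35.6 CPM in regular medium, 33.3 to 36.9 in naive CM and 901 to 1012 in IFNγ/LPS CM. Mpeg1, which encodes a pore-forming protein also induced by interferon, made up 874 CPM of the last sum. In regular medium Mertk (20.1 CPM) and Cd14 (13.2 CPM) held most of the sum, and in IFNγ/LPS CM Mertk was 1.94-fold lower and Cd14 3.25-fold higher. Cd68 rose 8.89-fold, from 0.688 to 6.19 CPM, Csf1r went from 27 counts to 656 and Lyz2 from 20 to 67. Among the markers too low to be tested, over the 4 IFNγ/LPS CM libraries Ptprc had 1 count, Adgre1 2, Itgam 6, and Fcgr1, C1qa and Aif1 0. The highest of these untested markers were Cx3cr1 with 24 counts (19 in regular medium), Fcgr3 with 14 (0), Fcer1g with 12 (11) and Mrc1 with 10 (5). Of 5 endothelial markers tested 2 were higher and 1 lower, or 2 and 2 with library totals. All listed endothelial markers summed to 3.66 to 5.27 CPM in regular medium and 9.12 to 9.41 CPM in IFNγ/LPS CM. Of those not tested, Cldn5 and Tie1 had no counts, Kdr went from 52 counts to 15 and Cdh5 from 3 to 14. More adventitial fibroblast markers fell than rose: of 8 tested 3 were higher and 5 lower (median -0.64), or 2 and 5 with library totals. Their summed level nevertheless went up, from 123 to 131 CPM in regular medium to 285 to 300 in naive CM and 2289 to 2596 in IFNγ/LPS CM. Ly6a, an interferon-responsive surface antigen, held most of that, rising from 69.6 to 2378 CPM. The other fibroblast markers went both ways, with Scara5 203-fold lower (95% counting interval 113 to 408) and Pdgfra 4.21-fold higher. Whether these cells contributed to the results was not tested.

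Structural matrix genes went both ways. Of 38, 15 were higher, 18 lower and 5 did not pass (median -0.18), beside 35.4% higher and 36.4% lower over all genes tested, and 11 were higher and 22 lower with library totals. At least 2-fold, 11 of the 38 were higher and 11 lower, beside 13.7% and 14.4% of all genes tested. Among elastic fibre genes, Eln was at 204, 204, 255 and 264 CPM in regular medium and 15.6, 16.4, 15.6 and 15 in IFNγ/LPS CM (14.8-fold lower), and Fbln5, which assembles elastin, fell 5.28-fold. Among fibrillar collagens, Col3a1 fell 12.5-fold, from 202, 183, 194 and 178 CPM to 15.9, 17.6, 13.3 and 13.7 CPM, although naive CM had 330, 349, 300 and 337 CPM. Col1a1 was at 318, 341, 494 and 635 CPM in regular medium and at 461, 498, 481 and 602 in IFNγ/LPS CM. The groups overlapped, and the log2 difference of 0.19 did not pass (edgeR adjusted p = 0.44) and was -0.19 with library totals. Among basement membrane genes of the list, Col4a1 rose from 263, 227, 277 and 265 CPM to 860, 873, 800 and 822 CPM (3.25-fold) and its partner chain Col4a2 3.14-fold. The laminin chains Lama4, Lamb1 and Lamc1 rose 5.6-fold, 3.56-fold and 2.22-fold, and Lama2 fell 4.91-fold. Col18a1 rose 30-fold, while the rises of Nid1 (1.37-fold) and Hspg2 (1.46-fold, groups overlapping) were close to the shift between scalings. Lox, the crosslinking oxidase, was at 334, 392, 405 and 392 CPM in regular medium and at 1044, 1095, 999 and 1167 in IFNγ/LPS CM (2.83-fold higher). The proteoglycans Vcan and Dcn rose 12-fold and 2.79-fold. The collagen VI chains Col6a1 and Col6a2 fell 4.79-fold and 8.18-fold, and Col6a3 1.27-fold.

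Proteases and their inhibitors went both ways, 14 up, 11 down and 2 not passing (median 0.23), or 13 up and 14 down with a median of -0.15 by library totals. Mmp3, stromelysin 1, was at 547, 556, 517 and 526 CPM in regular medium, 1128, 1122, 1110 and 1094 in naive CM and 21599, 21353, 22236 and 20929 in IFNγ/LPS CM, 40.1-fold higher. Its inhibitor Timp1 rose 50.3-fold, from 36.4, 29.1, 31.1 and 30.4 CPM to 1655, 1624, 1614 and 1493 CPM. Mmp13, a collagenase, rose 66.3-fold to 243 CPM and Mmp9 stayed low, with 0 counts in regular medium and 22 in IFNγ/LPS CM. Timp2 fell 2.65-fold and Mmp2 1.58-fold.

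**Figure D3:**
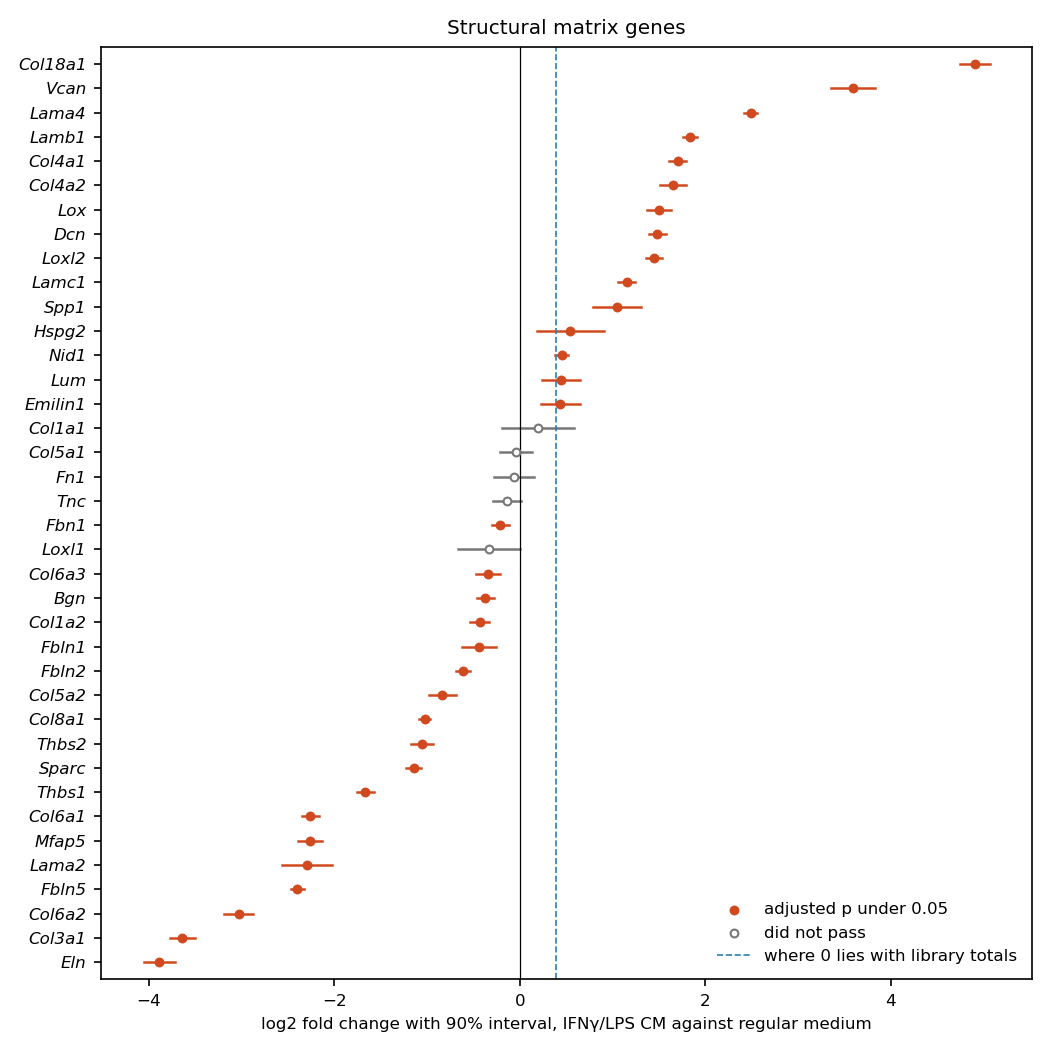
Log2 fold change between IFNγ/LPS CM and regular medium of the 38 structural matrix genes with 90% intervals; red points passed an adjusted p of 0.05, open grey points did not, and the dashed line shows where 0 would lie with library totals. Eln and Col3a1 lie at the low end and Col18a1, Vcan and Lama4 at the high end, with Col1a1, Col5a1, Fn1, Tnc and Loxl1 not passing.

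Proliferation genes, which were high in naive CM, ended at or below the regular-medium level in IFNγ/LPS CM, with Tpx2 as the exception on the mitosis list. Of 25 mitosis genes, 23 were lower in IFNγ/LPS CM than in regular medium, Tpx2 was higher and Aurka did not pass (median -1.23), and 16 fell at least 2-fold. Against regular medium, naive CM had all 25 higher (median 1.88). The summed level was 725 to 946 CPM in regular medium, 3010 to 3179 in naive CM and 428 to 572 in IFNγ/LPS CM, so the 3 groups did not overlap. Mki67, the proliferation antigen (chr7:135689784-135716361, minus strand, GRCm38), was at 76.8, 63.5, 63.2 and 67.5 CPM in regular medium, at 253, 232, 260 and 252 in naive CM and at 22.9, 27.4, 23.2 and 36.4 in IFNγ/LPS CM. Its fall below regular medium was 2.47-fold (log2 -1.31 ± 0.13 SE, edgeR adjusted p = 5.86e-06). Cenpf, a kinetochore protein, fell furthest on the list, from 34.9, 31, 30.5 and 32.6 CPM to 8.34, 8.24, 7.56 and 10.9 CPM (3.7-fold lower), from 155 CPM in naive CM. Most mitosis genes therefore ended below regular medium and not at it.

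Replication genes fell less by the list median. Of 22, 17 were lower and 5 did not pass (median -0.60), and 7 had a 90% interval within 1.5-fold, a smaller share than the 40.3% of all genes tested. With library totals all 22 were lower. Pcna, the replication clamp, was at 109, 93.4, 87.4 and 94.6 CPM in regular medium, 141, 147, 145 and 151 in naive CM and 93.9, 96.2, 93.7 and 99 in IFNγ/LPS CM. Its log2 difference from regular medium was -0.01. Mcm2, a helicase subunit, fell 2.38-fold and Tk1, thymidine kinase, 2.62-fold. Among CDK inhibitors, D cyclins and p53 targets, 12 rose, 5 fell and 7 did not pass (median 0.10), or 9 rose and 13 fell with a median of -0.28 by library totals. Ccnd1, the cyclin of early G1, fell 3.05-fold, from 1011, 1023, 1221 and 1247 CPM to 348, 370, 363 and 393 CPM. Cdkn1a, the CDK inhibitor p21, rose 3.6-fold, from 54.9, 57, 68.9 and 69.3 CPM to 217.6, 207, 242 and 232 CPM, and Mdm2 3.04-fold. Cdkn2c, the inhibitor p18, fell 2.9-fold.

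**Figure D4:**
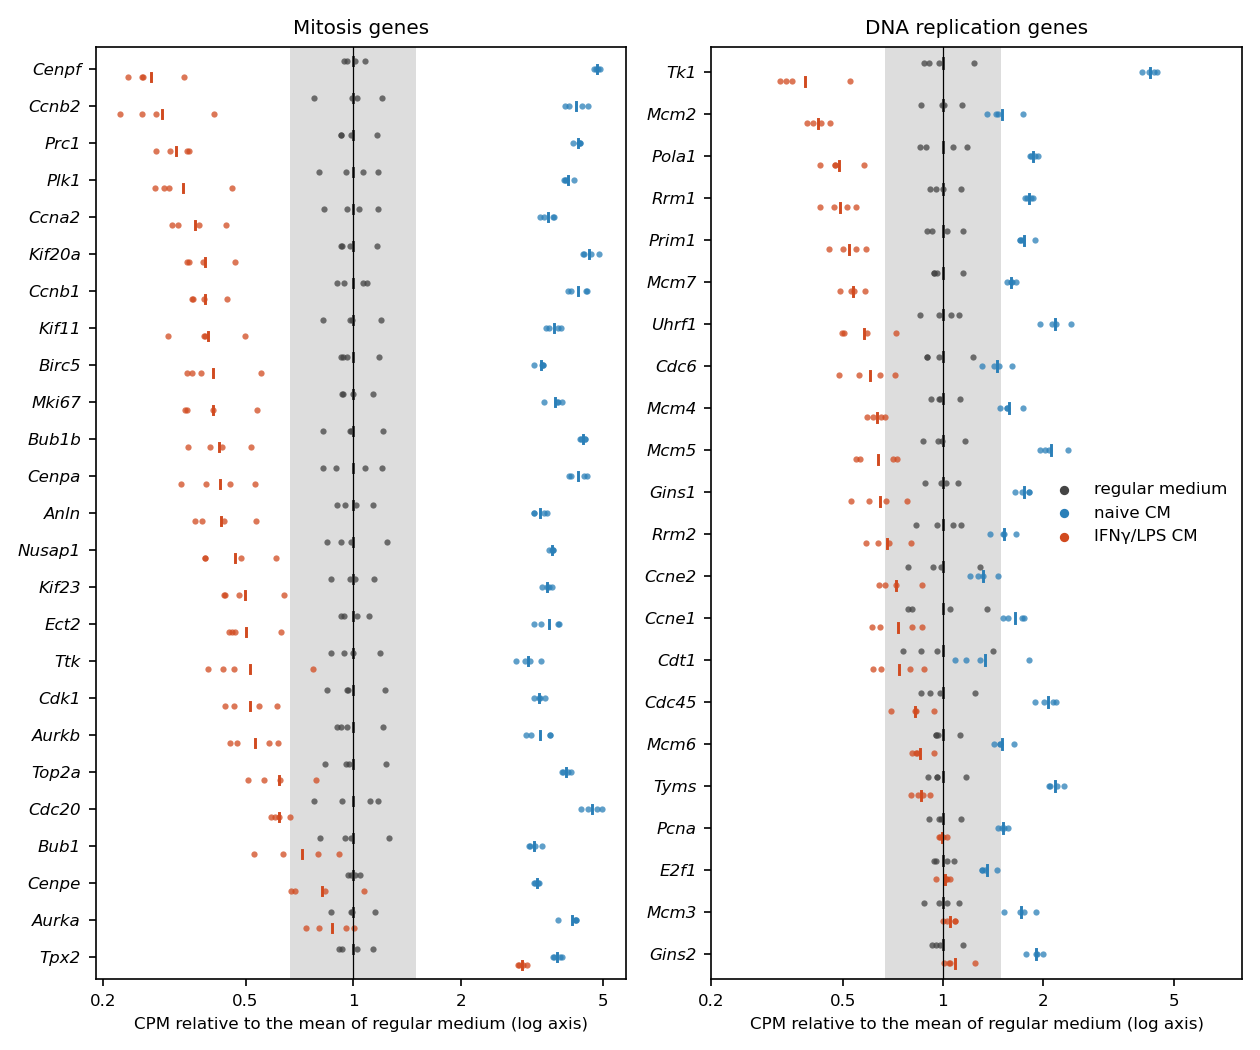
Level of each mitosis gene (left) and DNA replication gene (right) in each library relative to the mean of regular medium, on a log axis; points are libraries, short bars group means and the grey band 1.5-fold either side of regular medium. Naive CM lies to the right for every mitosis gene, while IFNγ/LPS CM lies left of the band for most of them; Aurka and Cenpe lie in the band and Tpx2 stays near its naive CM level.

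Genes back at the regular-medium level were defined by 3 conditions: at least 2-fold different between the conditioned media with an adjusted p under 0.05, different the opposite way between naive CM and regular medium at the same p, and a 90% interval of IFNγ/LPS CM against regular medium within 1.5-fold. This chose 75 of 16140 genes (0.465%), 66 higher in naive CM (0.409%) and 9 lower (0.0558%). Most of the 75 still passed an adjusted p of 0.05 against regular medium, mainly as lower in IFNγ/LPS CM. The class thus holds differences kept under 1.5-fold, and not equal levels. The 66 are 2.72% of the 2427 genes that were at least 2-fold lower in IFNγ/LPS CM than in naive CM, and 8.6% of the 767 of those that were also higher in naive CM than in regular medium. The 9 are 0.401% of 2246 genes and 2.45% of 367. Return within this 1.5-fold bound thus applied to few of the genes that differed between the media. The number rests on the bound: at 2-fold it was 335 genes, 238 higher in naive CM and 97 lower. Just inside the bound lay Cited2 and Cenpq, whose intervals both reached 1.495-fold, and just outside it Topbp1 and Gpsm2, at 1.5006-fold and 1.502-fold. Leaving out 1 library at a time gave 5 to 11 genes that were lower in naive CM and back, with 5 without IFNγ/LPS CM replicate 3, and none of the 9 was within a tighter bound. The class moved with the scaling: library totals gave 43 genes, of which 9 were among the 75.

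The largest return by change between the media was that of Aurka. It was at 12.9, 9.75, 11.2 and 11.1 CPM in regular medium, at 42.3, 47.4, 47.4 and 47 in naive CM and at 8.28, 10.8, 9 and 11.3 in IFNγ/LPS CM. The IFNγ/LPS CM and regular-medium libraries overlapped, and the 90% interval of their log2 difference was -0.37 to -0.02. Cenpe, a kinetochore motor, had 27.1, 25.1, 26.2 and 25.6 CPM in regular medium, 85.8, 83.5, 86.4 and 83.8 in naive CM and 17.4, 21.7, 17.9 and 27.8 in IFNγ/LPS CM. Its small fall still passed (log2 -0.30, edgeR adjusted p = 0.0403), since a gene in the class may differ by less than 1.5-fold. Aurka and Cenpe were the 2 of 25 mitosis genes in the class. Kif18b, a kinesin that shortens microtubules, was at 14.3, 10.9, 12.3 and 13.4 CPM in regular medium, at 33.8, 33.1, 38.1 and 34.6 in naive CM and at 11.7, 14, 11.3 and 15.1 in IFNγ/LPS CM. It was in the class under TMM, DESeq2 size factors and library totals alike, as were Cks2, a CDK-binding subunit, Tuba1c, an α-tubulin, Poc1a, Ube2t, Sprr1a, Krt13, Kifc5b and Gm4739. Of these, Cks2 (1.31-fold) and Gm4739 (1.22-fold) passed as higher in IFNγ/LPS CM than in regular medium.

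Further members with cell cycle roles were Ccnf, the F-box cyclin (13, 36.1 and 9.8 CPM in regular medium, naive CM and IFNγ/LPS CM), Ncapg, a condensin subunit (15.3, 47.3 and 13.5 CPM), Ckap2, a spindle protein (58.7, 156 and 50.2 CPM), and the CDK inhibitor Cdkn2d (10.7, 27.2 and 8.45 CPM). In IFNγ/LPS CM, Ccnf (1.32-fold), Ckap2 (1.17-fold) and Cdkn2d (1.27-fold) still passed as lower than regular medium, and Ncapg did not pass. Of the replication list, Cdc45, of the replicative helicase, and Tyms, thymidylate synthase, were in the class. Both still passed as lower than regular medium, Cdc45 1.22-fold and Tyms 1.17-fold. Tyms was at 22.9, 18.7, 17.5 and 18.7 CPM in regular medium, at 40.6, 41, 45.1 and 43 in naive CM and at 15.6, 16.9, 16.3 and 17.8 in IFNγ/LPS CM. Of 28 genes for cholesterol and fatty acid synthesis, Fdft1, squalene synthase, and Nsdhl, a sterol dehydrogenase, were in it. Fdft1 was at 88, 81.2, 85.7 and 84.7 CPM in regular medium, 121, 130, 129 and 131 in naive CM and 62, 68.1, 55.7 and 59.7 in IFNγ/LPS CM, so it ended below regular medium without overlap. Nsdhl likewise passed as lower than regular medium (1.31-fold, without overlap). Stard8, a GTPase activator, and Aqp1, the water channel (91.3, 194 and 67.5 CPM), were members outside the cell cycle. Stard8 (1.21-fold) and Aqp1 (1.35-fold, without overlap) also passed as lower than regular medium. TTTGAA stood in 25 of the 53 promoters found for the 66 genes (47.2%) and CCAAT in 64.2%, against 14.5% and 43.0% of the tested genes.

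The 9 genes that were lower in naive CM and back in IFNγ/LPS CM included Notch3, the Notch receptor of mural cells. It was at 12.3, 12.2, 16.7 and 20.7 CPM in regular medium, at 7.05, 7.41, 10.2 and 7.27 in naive CM and at 15.4, 15.1, 15.8 and 18.7 in IFNγ/LPS CM. Regular medium and IFNγ/LPS CM overlapped and naive CM lay below both. Fhod3, a formin that assembles actin, was at 31.2, 31.6, 31.7 and 26.8 CPM, at 19, 17.1, 14.2 and 17.2 and at 35, 38, 34.6 and 32.6 CPM in the same order of groups. Cited2, a CBP and p300 interacting factor, was at 13.1, 13.7, 14 and 21.4, at 9.87, 9.56, 9.37 and 9.61 and at 18.8, 20.1, 17.9 and 22.2 CPM. Fhod3 (1.16-fold, without overlap) and Cited2 (1.27-fold) passed as higher in IFNγ/LPS CM than in regular medium. For Cited2, regular medium replicate 4 alone lay among the IFNγ/LPS CM libraries. It lay nearest inside the bound and was in the class in 7 of 19 alternative settings, the fewest of the 75. It was lost with library totals, without a filter, with limma-voom and without any 1 IFNγ/LPS CM or naive CM library or regular medium replicate 4. None of the 9 was in the class with library totals.

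**Figure D5:**
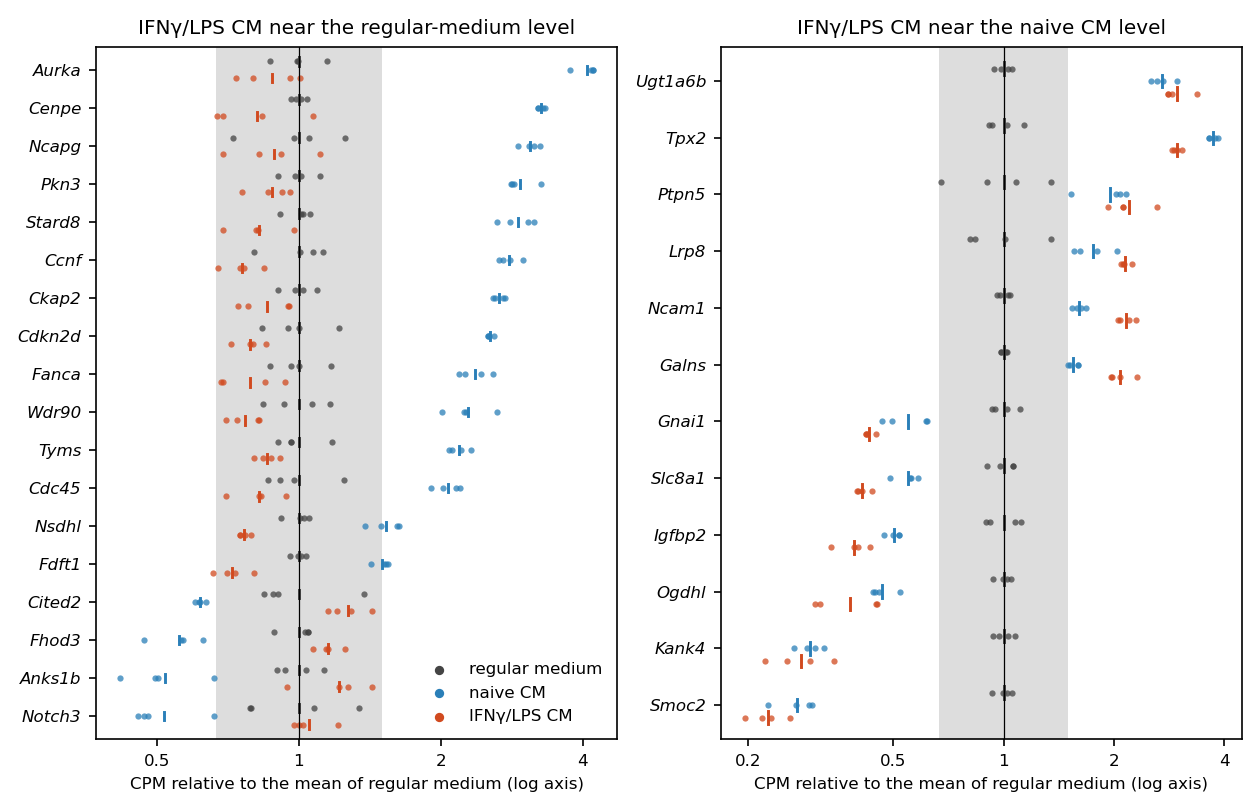
Level of the named genes in each library relative to the mean of regular medium, on a log axis, for genes back at the regular-medium level (left) and genes at the naive CM level (right); points are libraries, short bars group means and the grey band 1.5-fold either side of regular medium. On the left the red points lie in or beside the band and the blue points outside it for most genes; on the right red and blue lie together away from it.

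A smaller set stood near the naive CM level in IFNγ/LPS CM. Genes at least 2-fold different from regular medium in IFNγ/LPS CM, changed the same way in naive CM and within 1.5-fold of naive CM by the 90% interval numbered 31, 16 higher (0.0991%) and 15 lower (0.0929%). Tpx2, which activates Aurora A kinase, was at 46.1, 37.8, 37 and 41.5 CPM in regular medium, at 147, 148, 156 and 154 in naive CM and at 118, 121, 125 and 117 in IFNγ/LPS CM. It was the 1 mitosis gene above regular medium (2.96-fold, edgeR adjusted p = 3.78e-15), while its partner Aurka was back. Ugt1a6b, a glucuronosyltransferase whose exons are shared with other Ugt1a genes, stood at 3.87, 10.5 and 11.5 CPM on average in regular medium, naive CM and IFNγ/LPS CM. Smoc2, a matricellular calcium-binding protein, was lower in both conditioned media, at 109, 112, 107 and 99.7 CPM in regular medium, 29, 32, 24.3 and 31.6 in naive CM and 27.9, 23.4, 24.7 and 21 in IFNγ/LPS CM. Igfbp2, an IGF-binding protein, averaged 60.3 CPM in regular medium, 30.3 CPM in naive CM and 23.5 CPM in IFNγ/LPS CM. The sodium-calcium exchanger Slc8a1 went from 83 CPM to 45.4 and 34.1. Membership again allows a difference under 1.5-fold. Tpx2 (1.26-fold), Slc8a1 (1.33-fold) and Igfbp2 (1.29-fold) still passed as lower in IFNγ/LPS CM than in naive CM, without overlap. Smoc2 (1.21-fold, groups overlapping) also passed as lower, and Ugt1a6b did not pass. With library totals this set had 30 genes, 1 of them among the 31.

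Of 28 genes of cholesterol and fatty acid synthesis, 7 were higher, 13 lower and 8 did not pass (median -0.22), beside 35.4% higher and 36.4% lower over all genes tested. Of the 28, 17 had an interval within 1.5-fold, against 40.3% of all genes. Naive CM had 23 of 28 higher than regular medium (median 0.52). With library totals 2 were higher and 21 lower. Insig1, the sterol-sensing brake, fell 2.42-fold. Among 18 genes of lipid uptake, storage and efflux 12 rose, 5 fell and 1 did not pass (median 0.87). Ch25h, cholesterol 25-hydroxylase, went from 58 counts to 150 ± 8.37 CPM (ratio 531, 95% counting interval 410 to 699). Olr1, the scavenger receptor LOX-1, went from 34 counts to 28.5 CPM (ratio 172, 123 to 248), while Cd36, another scavenger receptor, fell 11.4-fold. The efflux pump Abca1 rose 2.88-fold and the fatty acid carrier Fabp5 fell 18.3-fold.

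Growth factor, Notch and mechanical-response genes were mixed. Of 33 growth factors and receptors, 15 rose, 15 fell and 3 did not pass (median 0.01), beside 35.4% higher and 36.4% lower over all genes tested. By library totals 13 rose and 17 fell, with a median of -0.37. Igf1 fell 17.4-fold and Tgfb3 5.34-fold, while Ereg, an EGF receptor ligand, rose 11.3-fold. Jag1, the Notch ligand of SMCs, was at 174, 173, 173 and 170 CPM in regular medium and 16.4, 18.1, 17.8 and 16.9 in IFNγ/LPS CM (9.95-fold lower), and the Notch target Hey2 fell 22.6-fold, whereas Notch3 was back and Notch1 rose 3.83-fold. Of 21 immediate early, SRF and YAP target genes 10 were higher, 5 lower and 6 did not pass (median 0.23), or 10 and 8 with a median of -0.15 by library totals. Ccn2, connective tissue growth factor, fell from 1055, 1184, 1168 and 1277 CPM to 87.8, 94.9, 74.9 and 76.5 CPM, 14-fold. Fosl1, an AP-1 subunit, rose 17.4-fold.

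Genes of the amino acid and unfolded protein stress responses rose in 17 of 24 cases, fell in 4 and did not pass in 3 (median 1.02), or 16 and 7 with library totals. Atf4 rose 4.05-fold, its pseudokinase target Trib3 9.17-fold and the chaperone Hspa5 2.07-fold, while Phgdh, of serine synthesis, fell 2.84-fold. Of 22 genes of pyroptosis, necroptosis and apoptosis 18 rose, none fell and 4 did not pass (median 1.53), or 17 and 4 with library totals. Casp4, the caspase that senses cytosolic LPS, was at 7.31, 7.65, 8.17 and 7.31 CPM in regular medium and at 242, 247, 237 and 234 in IFNγ/LPS CM (31.7-fold). Mlkl, which forms the necroptotic pore, rose 31-fold, from 6.87, 6.03, 7.71 and 6.55 CPM to 215.1, 208, 206 and 203 CPM, and Gsdmd, the pyroptotic pore, 22.1-fold. The death receptor Fas rose 7.83-fold, the inhibitor Cflar 2.54-fold, and Mcl1, Bcl2 and Xiap were among those that did not pass. Cell death itself was not measured. Of 10 osteochondrogenic and calcification genes 2 were higher, 7 lower and 1 did not pass (median -1.15), so the list did not move as one. Sox9, the chondrogenic factor, fell 8.22-fold. Alpl rose from 12 counts in regular medium to 91 in IFNγ/LPS CM (ratio 10.96, 95% counting interval 5.98 to 21.99).

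The largest falls by log2 fold change lay mostly outside these lists. Atp1b1, a sodium pump subunit, fell 65-fold, from 561, 602, 590 and 561 CPM to 8.28, 9.05, 10.1 and 8.14 CPM. Aldh1a7, an aldehyde dehydrogenase, fell 77.3-fold, from 86.3 to 1.12 CPM. Elobl, Fam180a, Cmklr1, a chemerin receptor, and Fmo2, a flavin monooxygenase, fell by ratios of 180 (95% counting interval 129 to 261), 123 (92.6 to 166), 68.8 (52.2 to 92.5) and 59.5 (44.9 to 80.5). Fam177a was also chosen by this rule, but 1 library carried it: regular medium replicate 4 had 152 CPM and the others 3.27 to 7.31 CPM, and its call was lost in limma-voom (edgeR adjusted p = 0.0101, limma-voom adjusted p = 0.218).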

How the data were processed

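The values are estimated counts per gene that the authors deposited as whole numbers in 1 table, made with Salmon 1.10.1 and mm10 per the submitters' processing notes. Per the labels' protocols, RNA was extracted with the PureLink RNA Mini kit, and Illumina Stranded mRNA Prep libraries were read as 150 bp pairs on a NovaSeq X Plus. The annotation release is not given in the sources used here. Symbols and coordinates came from GENCODE M21, matched without version to 51344 of 55822 gene IDs, 35 of them with the same version. Columns were read by name, M0 as naive and M1 as IFNγ/LPS CM.

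From the counts, edgeR 4.0.16 in R 4.3.3 fitted 1 quasi-likelihood model to all 12 libraries (9 residual degrees of freedom), after filterByExpr (16140 genes kept) and TMM, with Benjamini-Hochberg adjustment over all genes and a threshold of 0.05. A fold against a group without counts is a lower bound at 3 counts over that group. For genes with under 100 counts in the lower group, ratios of scaled counts have 95% binomial intervals. Floors and intervals cover counting error only, and reads carried no molecular identifiers. Figures were drawn with matplotlib. The scripts were tested on simulated data.

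The genes and the 30 lists (674 genes, 600 of them tested) were chosen with earlier results of these data known. Named were the 8 largest rises and falls without overlap and with a mean of 20 CPM or more on the higher side, up to 4 called members a list, all list members back at the regular-medium level, the largest changes of that class and of the class at the naive CM level, and a set of SMC, interferon and matrix genes. Other members named were chosen after their values were seen. A few genes that this rule chose are not reported here. The alternatives were DESeq2 1.42.0 size factors, library totals, no filter, a filter of 1 CPM in 4 libraries, the DESeq2 Wald test, limma-voom (limma 3.58.1), a replicate block, each library left out, the 8 libraries alone, and other bounds for both classes.

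Replicate numbers are shared by the groups. Same-numbered libraries deviated together with correlations of -0.108 to 0.157 over 12 pairs, and not every pair exceeded 0.1, so the fit has no block.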

Additional observations from a re-analysis of the deposited data

Results flagged for a closer look

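In 21 of at most 364 groups of 4 libraries examined, 1 library stood away from the other 3 by more than Dixon's criterion allows. Chance alone flags about 1 in 20 groups (5%). In IFNγ/LPS CM, the library standing apart was replicate 4 for Serpina3f (436.8 CPM, the others 470.4 to 476.9) and Irf1 (1491, the others 1603 to 1618), replicate 1 for Irf8 (30.01, the others 31.61 to 31.78), Gclc (115.5, the others 109.1 to 109.7), Col6a2 (11.89, the others 12.83 to 12.9) and Vcam1 (4078, the others 4261 to 4273), and replicate 3 for Mmp13 (265.7, the others 234.1 to 239.1). In the same group replicate 4 was high for Tk1 (9.377 CPM) and Gnai1 (8.522), and replicate 3 was low for Fosl1 (26.54) and high for Ugt1a6b (13.08).

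In regular medium, Fam177a had 151.6 CPM in replicate 4 and 3.274 to 7.311 in the others, the widest of the 21 relative to its group's range. Replicate 4 was also high for Trib3 (9.374 CPM), Eng (3.655) and Cited2 (21.35) and low for Fhod3 (26.84), and replicate 1 was low for Ereg (23.45) and Vcam1 (459.5). In naive CM, replicate 1 was low for Aurka (42.26 CPM) and replicate 3 high for Pkn3 (17.61) and Notch3 (10.2).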

How the results depend on the processing

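Library totals gave 3279 genes higher and 9596 lower than regular medium, 43 genes back at its level (9 of them among the 75) and 30 at the naive CM level. A tighter bound left 8 genes back at the regular-medium level and 5 at the naive CM level, a bound of 2-fold gave 335 and 207, and a 1.5-fold change between the conditioned media gave 376 genes back. The cause was not tested beyond the construction of these bounds. Leaving out 1 library at a time gave 5557 to 5822 higher, 5662 to 5916 lower, 58 to 93 back and 24 to 41 at the naive CM level. With the replicate number as a block (replicate block) the counts were 5726, 5884, 77 and 31, so the block changed no count by over 1.5 times. Of the 12 libraries, 4 correlated best with their own number. DESeq2 size factors, both filters, the DESeq2 Wald test and limma-voom gave 70 to 79 genes back. Places in that class moved more than its size: of the 75 genes, 7 were in it in all 19 settings, 33 were lost with library totals alone and 35 with at least 1 other setting. The log2 fold changes of 167 named genes, as opposed to their class, kept direction and call in every setting run for 165 of them. For named genes back at the regular-medium level, the change followed was that between the conditioned media, by which they were chosen. Their stability there says little of their difference from regular medium. For the other named genes it was the change against regular medium. Fam177a lost its call in limma-voom (log2 -6.37), and Col1a1 turned to -0.19 with library totals. List medians turned with library totals for proteases (-0.15), CDK inhibitors and p53 targets (-0.28), immediate early genes (-0.15) and growth factors (-0.37). The growth factor median also turned with the filter of 1 CPM (-0.11) and without IFNγ/LPS CM replicate 4 (-0.035), regular medium replicate 1 (-0.030) or replicate 2 (-0.026), and ranged from -0.035 to 0.0499 over the libraries left out. The depth limits what can be said of genes with a few counts in one group, whose ratios have wide intervals.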
